A study of Mus musculus with 4 samples.

Results

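The endothelin and gp130 cytokine axis of the mouse retina was described through 10 genes from the 22095 gene loci listed in the expression file. These genes were chosen by name, with earlier results of these data known. They were the secreted factors *Edn2*, *Lif* and *Fgf2*, the receptors *Ednrb*, *Lifr*, *Osmr* and *Il6st*, and the intracellular effector *Stat3* with *Socs3* and *Gfap*. RNA was measured by poly(A) RNA-seq in whole retinas of *rd7* mice, labelled *Nr2e3* mutant, and of wild-type (WT) mice, with 2 libraries per genotype. The labels name the strain C57BL/6J and an age of 3 weeks for both genotypes, and no agent was given to either. *Nr2e3* encodes a nuclear receptor of rod photoreceptors, and the *rd7* mutation is carried in every cell of the animal rather than in the photoreceptors alone. Each library was a separate pool of 8 retinas taken from 4 animals, with females and males in equal number, so the spread given here is between pools and not between single animals. Values are FPKM, fragments scaled to the length of the transcript and to the number of mapped fragments of the library.

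Damaged photoreceptors are known to release endothelin 2, the product of *Edn2*, which acts on the endothelin B receptor of Müller cells, the radial glia that span the retina. Leukemia inhibitory factor (*Lif*) is made by a subset of Müller cells in injured retinas and binds a receptor formed by *Lifr* and the shared signal-transducing subunit gp130, encoded by *Il6st*. gp130 activates JAK kinases, which phosphorylate STAT3, and STAT3 induces its own inhibitor *Socs3* and the intermediate filament gene *Gfap*, the classical marker of glial reactivity. *Fgf2* encodes a growth factor with a known protective action on photoreceptors.

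Among the facts of the whole series, the mutated gene *Nr2e3* was listed at 2493 and 1589 FPKM in *rd7* replicates 1 and 2 and at 385 and 394 FPKM in WT replicates 1 and 2. It was therefore higher in both libraries labelled *rd7*, by 2.35 on the log2 scale (SE 0.20, adjusted p = 0.0011, limma). The lowest FPKM steps of genes with 1 annotated transcript put the depth at roughly 3.43e+07 to 3.50e+07 reads per library, a rough estimate. Only genes with more than 800 exonic bases were used for it. Markers of the labelled tissue were present in every library: the 16 Müller cell genes summed to 2536 and 2488 FPKM in *rd7* replicates 1 and 2 and to 2228 and 2301 FPKM in WT replicates 1 and 2. The 4 libraries were sequenced in a single lane and the labels give no other batch. Of 12655 genes tested, 37.6% were called higher and 8.80% lower in *rd7* at a false discovery rate of 5%, and the median log2 difference of all of them was 0.15, so the differences of the 10 genes are to be read against that shift. A median-ratio scaling of the libraries removed the shift and called 2492 genes higher and 2479 lower, against 4755 and 1114 without it.

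*Lif*, with a mean of 0.145 FPKM, was under the limit of a mean of 1 FPKM and was not tested. Of the 9 genes tested, *Ednrb*, *Lifr*, *Osmr*, *Il6st*, *Stat3* and *Socs3* were higher in *rd7*, where 37.6% of all genes tested were. *Edn2*, *Fgf2* and *Gfap* did not pass the test (limma, adjusted over all genes tested). None of the 9 was lower (limma), and none was lower at an unadjusted p under 0.05. *Osmr* and *Socs3* had WT means under 1 FPKM and so passed the filter through their *rd7* libraries. Both *rd7* libraries lay above both WT libraries in 8 of the 9, against 57.1% of all genes tested. The 6 calls rested on small groups: 0 of the 9 remained without WT replicate 1 and 2 (*Ednrb* and *Osmr*) without WT replicate 2, while median-ratio scaling left 4, quantile normalization 3, and a GC content and length correction 3. With no filter on low FPKM, which tests 21833 loci, 1 call (*Lifr*) remained. Because whole retinas were measured, a change in the number of cells of a type and a change in RNA per cell cannot be told apart.

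The pair of *rd7* libraries differed in these genes more than the WT pair did. The ratio of *rd7* replicate 2 to *rd7* replicate 1 ran from 0.886 (*Ednrb*) to 10.3 (*Edn2*) over the 9 genes tested, with a median of 1.50, whereas the same ratio had a median of 0.994 over all genes tested. Between the WT libraries the ratio of replicate 2 to replicate 1 stayed within 0.846 to 1.14. *rd7* replicate 2 was at least 2 times the WT mean in 6 of the 9 genes, against 2.53% of all genes tested, and *rd7* replicate 1 reached that level in 1 of the 9 (*Osmr*), against 2.61%. In 3 of the 9 (*Edn2*, *Fgf2* and *Gfap*) *rd7* replicate 2 was at least 2 times *rd7* replicate 1, which held for 0.545% of all genes tested. *rd7* replicate 2 was above *rd7* replicate 1 at all in 8 of the 9, against 47.6%. Because the genes were chosen with earlier results of these data known, these shares describe the libraries and are not a test.

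**Figure D1:**
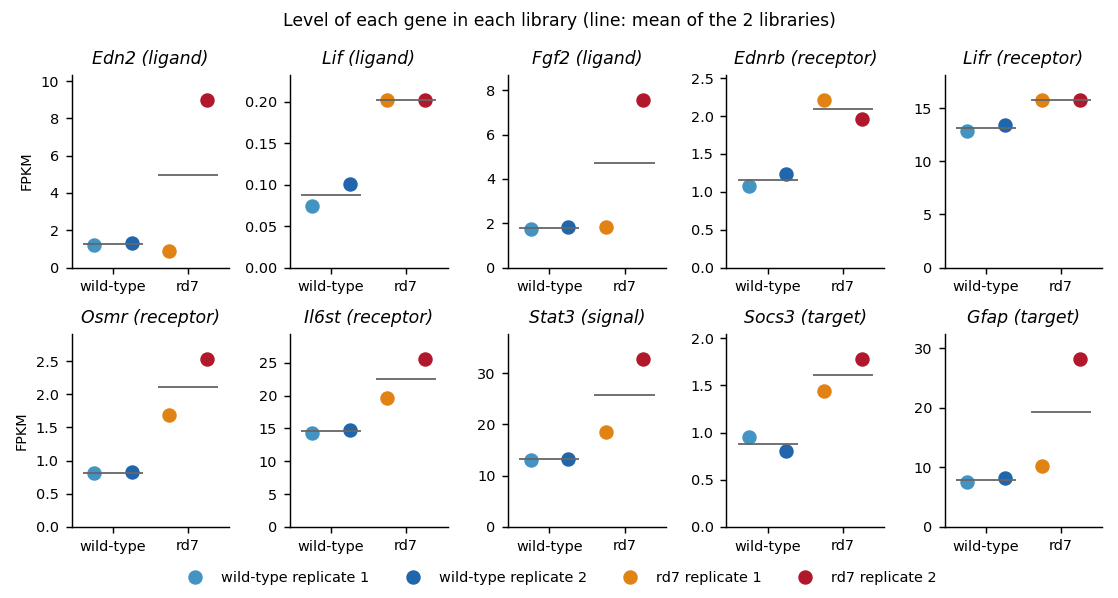
FPKM of the 10 genes in each of the 4 libraries, with a panel and a linear axis from 0 for each gene, 1 point per library and a line at the mean of the 2 libraries of a genotype. *Edn2* (9.00 FPKM), *Fgf2* (7.58 FPKM) and *Gfap* (28.1 FPKM) stand apart in *rd7* replicate 2, while *Ednrb* and *Lifr* lie close together in the *rd7* libraries.

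*Edn2* (chr4:119834029-119839965, plus strand, mm9) was listed at 0.874 FPKM in *rd7* replicate 1, 9.00 in *rd7* replicate 2, 1.18 in WT replicate 1 and 1.34 in WT replicate 2. *rd7* replicate 2 alone was high, and *rd7* replicate 1 lay below both WT libraries, so the genotypes overlapped. Relative to the WT mean of 1.26 FPKM (SD 0.11, n = 2), the level was 0.693 times in *rd7* replicate 1 and 7.14 times in *rd7* replicate 2. The log2 difference of 1.13 had a standard error of 0.96 (adjusted p = 0.369, limma). Without *rd7* replicate 2 it was -0.48 and without *rd7* replicate 1 it was 2.74. These FPKM correspond to roughly 45 reads in *rd7* replicate 1, 452 in *rd7* replicate 2 and 60 and 68 in the WT libraries.

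*Fgf2* (chr3:37247575-37303752, plus strand, mm9) followed a similar course, with 1.83 FPKM in *rd7* replicate 1, 7.58 in *rd7* replicate 2, 1.75 in WT replicate 1 and 1.82 in WT replicate 2. *rd7* replicate 1 was level with the WT libraries at 1.03 times their mean, and *rd7* replicate 2 stood at 4.24 times. The log2 difference of 1.03 (SE 0.59) did not pass the test (adjusted p = 0.203, limma), and it was 0.03 without *rd7* replicate 2 and 2.02 without *rd7* replicate 1. *Nudt6*, the antisense neighbour of *Fgf2* (chr3:37303906-37318512, minus strand, mm9), lies 153 bases beyond *Fgf2* in the listed loci, while in the annotation used here the exons of the 2 genes share 242 bases, or 13.4% of the *Fgf2* exons. It was listed at 3.30 and 9.57 FPKM in *rd7* replicates 1 and 2 and at 3.30 and 4.07 in the WT libraries. The stated library protocol does not mark strand, so reads from any bases that both transcripts cover cannot be told apart, and whether such reads entered these FPKM was not tested.

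*Lif* (chr11:4157571-4172517, plus strand, mm9) was low in every library, at 0.202 FPKM in *rd7* replicates 1 and 2 alike and at 0.0745 and 0.101 in WT replicates 1 and 2. Both *rd7* libraries were above both WT libraries, at 2.31 times the WT mean each. These levels rest on roughly 31, 30, 11 and 15 reads in that order. Without the filter on low FPKM the adjusted p was 0.0512 (limma), on a log2 difference of 0.69.

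All 4 receptor genes were called higher in *rd7*, against 37.6% of all genes tested, although the direction of *Lifr* turned with the GC content and length correction. The ratios of *rd7* replicate 2 to replicate 1 of the 4 genes ran from 0.886 (*Ednrb*) to 1.50 (*Osmr*). *Ednrb*, the endothelin B receptor gene (chr14:104213842-104243390, minus strand, mm9), stood at 2.22 and 1.96 FPKM in *rd7* replicates 1 and 2 and at 1.08 and 1.23 in WT replicates 1 and 2. It was higher in both *rd7* libraries without overlap, by 0.81 on the log2 scale (SE 0.14, adjusted p = 0.00765, limma). This gene was the single one of the 9 tested in which *rd7* replicate 1 exceeded *rd7* replicate 2. The call was lost without WT replicate 1 (adjusted p = 0.0665) and with no filter on low FPKM (adjusted p = 0.0663).

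*Osmr*, which encodes the oncostatin M receptor subunit that pairs with gp130 (chr15:6763577-6824313, minus strand, mm9), was listed at 1.69 and 2.53 FPKM in *rd7* replicates 1 and 2 and at 0.811 and 0.828 in the WT libraries. Its log2 difference was 1.24 (SE 0.22, adjusted p = 0.00703, limma), and it was at least 2 times the WT mean in each *rd7* library, at 2.06 and 3.09 times. The call was lost without WT replicate 1 (adjusted p = 0.0554) and with no filter on low FPKM (adjusted p = 0.0931).

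*Il6st*, the gene of gp130 itself (chr13:113254278-113297068, plus strand, mm9), stood at 19.7 and 25.6 FPKM in *rd7* replicates 1 and 2 against 14.4 and 14.7 in the WT libraries. Both *rd7* libraries were higher, with a log2 difference of 0.62 (SE 0.12, adjusted p = 0.0106, limma). After a GC content and length correction it was 0.38 (adjusted p = 0.0698), and the call was also lost without WT replicate 1 (adjusted p = 0.0805), without WT replicate 2 (adjusted p = 0.0602) and with no filter on low FPKM (adjusted p = 0.133). *Lifr*, the partner of gp130 in the LIF receptor (chr15:7079572-7147489, plus strand, mm9), was listed at 15.8 FPKM in both *rd7* libraries and at 12.8 and 13.5 in the WT libraries. Its log2 difference was small, at 0.26 (SE 0.06, adjusted p = 0.0128, limma). Median-ratio scaling brought it to 0.11 (adjusted p = 0.144), quantile normalization to 0.11 (adjusted p = 0.150) and the GC content and length correction to -0.07 (adjusted p = 0.351). It was also lost without WT replicate 1 (adjusted p = 0.139) and without WT replicate 2 (adjusted p = 0.0720). Of the 4 receptor genes, the call for *Lifr* is thus the one whose direction depended on the scaling.

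*Stat3*, the transcription factor downstream of gp130 (chr11:100748124-100800825, minus strand, mm9), was listed at 18.6 FPKM in *rd7* replicate 1, 32.8 in *rd7* replicate 2, 13.0 in WT replicate 1 and 13.3 in WT replicate 2. Both *rd7* libraries were above the WT libraries, at 1.41 and 2.48 times their mean. The log2 difference was 0.90 (SE 0.25, adjusted p = 0.0293, limma). Leaving out 1 of the *rd7* libraries gave 0.49 (without *rd7* replicate 2) and 1.31 (without *rd7* replicate 1). It did not pass the test after median-ratio scaling (0.75, adjusted p = 0.0620), quantile normalization (0.75, adjusted p = 0.0729) or the GC content and length correction (0.71, adjusted p = 0.0852). The same held for a fit with no variance trend (adjusted p = 0.0568), for no filter on low FPKM (adjusted p = 0.234), and without WT replicate 1 (adjusted p = 0.136) or WT replicate 2 (adjusted p = 0.112). *Stat3* overlaps the antisense gene *Stat5a* in 72 exonic bases, or 0.756% of its exons.

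*Socs3*, the feedback inhibitor of this pathway (chr11:117827403-117830680, minus strand, mm9), stood at 1.44 and 1.78 FPKM in *rd7* replicates 1 and 2 and at 0.950 and 0.804 in the WT libraries. Both *rd7* libraries lay above both WT libraries, with a log2 difference of 0.80 (SE 0.18, adjusted p = 0.0167, limma). The call was lost with quantile normalization (0.61, adjusted p = 0.0537), with no filter on low FPKM (adjusted p = 0.102), without WT replicate 1 (adjusted p = 0.0615) and without WT replicate 2 (adjusted p = 0.0862). The stretch of its promoter that holds a match to TTCNNNGAA, a palindrome of the kind STAT factors bind, is shown with the match in capitals. It is taken from RefSeq, read on the minus strand at chr11:117969472-117969580 (GRCm38.p6), where the match runs from position -154 to -146 relative to the transcription start.
Socs3: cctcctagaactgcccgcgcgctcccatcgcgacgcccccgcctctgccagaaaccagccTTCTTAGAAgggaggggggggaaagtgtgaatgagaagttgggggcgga

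*Gfap* (chr11:102748650-102758514, minus strand, mm9) had the highest WT level after *Lifr*, *Il6st* and *Stat3* among the 10 genes, and its ratio of *rd7* replicate 2 to replicate 1 was 2.74. It was listed at 10.3 FPKM in *rd7* replicate 1, 28.1 in *rd7* replicate 2, 7.59 in WT replicate 1 and 8.14 in WT replicate 2, so *rd7* replicate 1 stood at 1.304 and *rd7* replicate 2 at 3.58 times the WT mean. Both *rd7* libraries lay above the WT libraries, and *rd7* replicate 1 was nearer to WT than to *rd7* replicate 2. The log2 difference of 1.10 (SE 0.43) did not pass the test (adjusted p = 0.0831, limma). It was 1.83 without *rd7* replicate 1 and much smaller, at 0.38, without *rd7* replicate 2. The *Gfap* promoter window also holds the palindrome, in capitals, across the transcription start (RefSeq, minus strand, chr11:102897194-102897262, GRCm38.p6).
Gfap: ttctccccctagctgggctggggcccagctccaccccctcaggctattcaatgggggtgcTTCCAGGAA

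The promoter windows of all 10 genes were found in RefSeq, as 11 windows of 300 bases that run from 250 before to 50 after the start. Searched on both strands, which read alike for this palindrome, the windows of *Socs3* and *Gfap* held TTCNNNGAA, and the other 8 genes did not hold these letters in theirs. Of 32851 promoter windows of that length in the table, 8.30% held it. A match is a description of the sequence only, and binding was not measured.

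**Figure D2:**
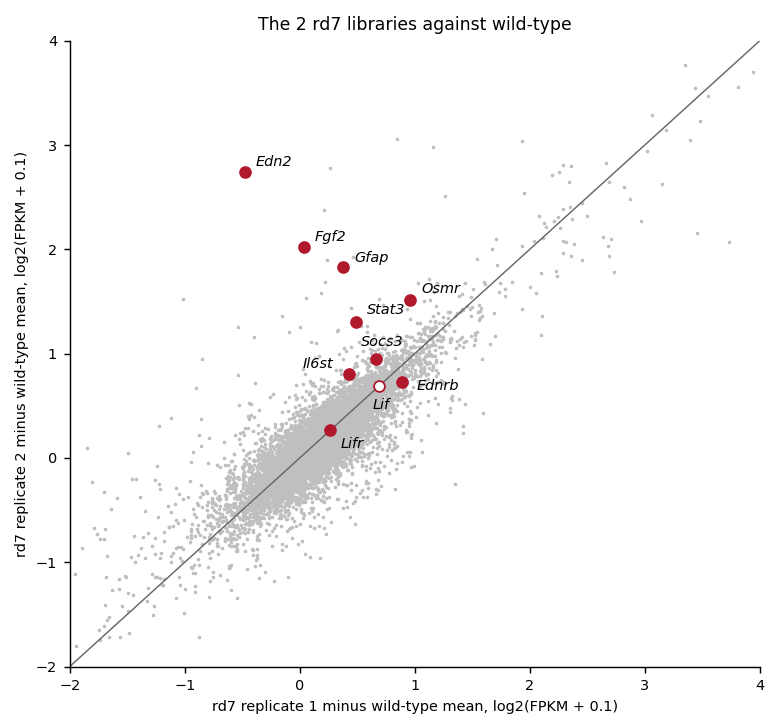
Log2 difference of each *rd7* library from the WT mean for the genes tested, with *rd7* replicate 1 on the horizontal and *rd7* replicate 2 on the vertical axis, the 10 genes marked (open point: *Lif*, not tested) and a line at equal values, where 46 of the 12655 genes tested lie outside the plotted range. The 9 genes tested had a median of 0.43 in *rd7* replicate 1 and 1.31 in *rd7* replicate 2, against 0.15 and 0.14 over all genes tested.

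Leaving out either *rd7* library gave the contrast of a single *rd7* library with both WT libraries. With *rd7* replicate 2 alone, all 9 genes tested were called higher, against 41.0% of all genes tested, and with *rd7* replicate 1 alone 7 were, against 43.3%. *Edn2* (-0.48) and *Fgf2* (0.03) had the lowest values with *rd7* replicate 1 alone. The cause of the difference between the *rd7* libraries was not tested, and the pool of animals and the library preparation cannot be told apart.

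**Figure D3:**
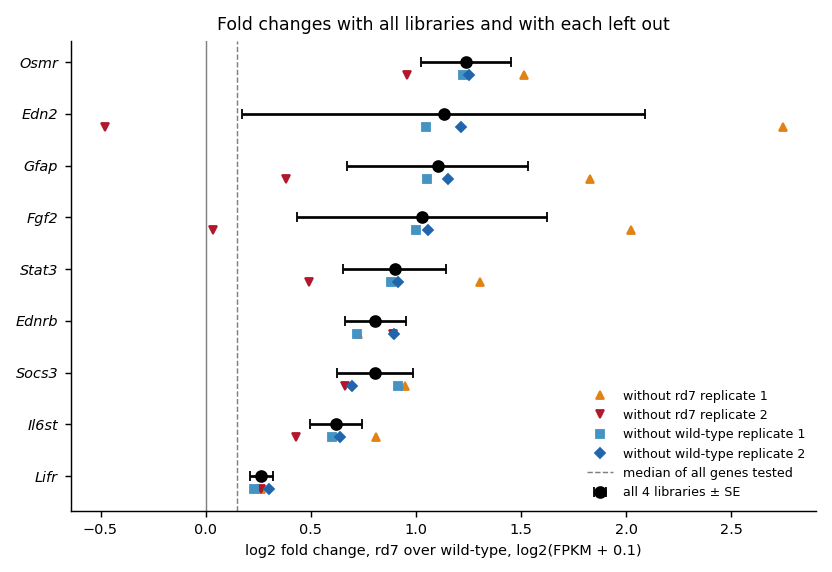
Log2 difference between *rd7* and WT for the 9 genes tested, as black points with the standard error from all 4 libraries and coloured points for the fits without 1 library, with a dashed line at the median of all genes tested. The error is widest for *Edn2* (0.96), *Fgf2* (0.59) and *Gfap* (0.43), and the *Edn2* points without an *rd7* library lie at -0.48 and 2.74.

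Other genes of the endothelin system were taken from a list of 7, of which 3 reached the expression limit and 2 were higher. Of all genes tested, 37.6% were called higher. *Ece1*, which encodes the protease that cleaves big endothelins into their active form, stood at 34.7 and 31.0 FPKM in *rd7* replicates 1 and 2 against 9.57 and 9.58 in the WT libraries, a log2 difference of 1.77 (SE 0.07, adjusted p = 0.00015, limma) with nearly equal values in the *rd7* libraries. *Edn1*, the ligand endothelin 1, was higher by 0.52 (SE 0.13, adjusted p = 0.0238), but lost the call under median-ratio scaling (adjusted p = 0.0678), quantile normalization (adjusted p = 0.0926) and the GC content and length correction (adjusted p = 0.154). *Ece2*, a second converting enzyme, did not pass the test at 10.3 and 10.6 FPKM against 11.9 and 11.1, although it was called lower under each of those scalings. The receptor *Ednra* was listed at 1.01 and 0.701 FPKM in *rd7* replicates 1 and 2 and at 0.521 and 0.381 in WT, and *Edn3*, *Ecel1* and *Mme* were under 0.3 FPKM in all libraries.

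Among 10 further gp130 cytokine genes, 3 were tested and *Cntf* was called higher, where 37.6% of all genes tested were. *Cntf*, ciliary neurotrophic factor, stood at 3.99 and 5.19 FPKM in *rd7* replicates 1 and 2 and at 1.09 and 1.56 in the WT libraries, a log2 difference of 1.72 (SE 0.20, adjusted p = 0.00239, limma). It shares its locus (chr19:12838018-12840122, mm9) with the readthrough gene *Zfp91-Cntf*, listed at 5.31e-05 and 9.45e-05 FPKM in *rd7* and at 2.69 and 2.49 in WT, so the division of reads between the 2 loci makes the *Cntf* value uncertain. *Ctf1* and *Ebi3* did not pass the test, *Il11* and *Clcf1* were near or under 1 FPKM, *Il6*, *Osm* and *Ctf2* were near 0, and *Il27* was listed at 0 in all libraries. Of 5 further receptor subunits, *Il11ra1* and *Cntfr* were tested and neither passed (adjusted p = 0.0528 and 0.0518, limma), with 4.78 and 5.35 FPKM in *rd7* against 6.03 and 5.98 for *Il11ra1* and 11.3 and 12.7 against 14.9 and 13.6 for *Cntfr*. Both were called lower under median-ratio scaling and quantile normalization.

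Of 17 tested genes of the JAK and STAT cascade and its inhibitors, 10 were higher and 0 lower (0 lower at an unadjusted p under 0.05), with a median log2 difference of 0.30 against 0.15 over all genes, of which 37.6% were called higher. Those higher included the inhibitor *Socs6* (0.74, SE 0.07), the STAT family gene *Stat5b* (0.50, SE 0.07) and the kinase *Jak2* (0.37, SE 0.06). *Socs6* stood at 5.62 and 5.70 FPKM in *rd7* replicates 1 and 2 and at 3.36 and 3.34 in WT, so the *rd7* libraries were alike in it. The *Jak2* call was lost with quantile normalization (adjusted p = 0.0656, limma) and with the GC content and length correction (adjusted p = 0.576). The list's count was 3 higher and 1 lower with median-ratio scaling and 2 higher and 1 lower with quantile normalization and with the GC content and length correction, so it depended on the common shift of the genes. Of 12 tested FGF family, receptor and feedback genes other than *Fgf2*, 6 were higher and 0 lower (0 lower at an unadjusted p under 0.05). The largest differences were those of *Fgf14* (0.88) and *Fgf13* (0.45), which with *Fgf12* encode intracellular FGF-homologous factors. The count of 6 compares with 37.6% of all genes tested. No gene of this list was at least 2 times the WT mean in either *rd7* library, a level reached by 2.61% of all genes tested in *rd7* replicate 1 and 2.53% in *rd7* replicate 2. Median-ratio scaling left 3 higher, *Fgf12*, *Fgf13* and *Fgf14*, and 1 lower. *Fgfr1*, *Spry1* and *Dusp6* lost their calls with it (adjusted p = 0.152, 0.267 and 0.187, limma).

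The *rd7* libraries also stood apart in genes of reactive glia other than *Gfap*. Of 18 tested reactive glia genes, 6 were higher and 1 was lower in *rd7*, a share near the 37.6% of all genes called higher. In 17 of the 18 *rd7* replicate 2 was above *rd7* replicate 1, against 47.6% of all genes tested. The list was chosen with earlier results of these data known. The median log2 difference from WT was 0.17 for *rd7* replicate 1 and 0.57 for *rd7* replicate 2. *Serpina3n*, a protease inhibitor, was listed at 1.35 FPKM in *rd7* replicate 1, 8.19 in *rd7* replicate 2 and 1.34 and 0.917 in WT, and the complement gene *C4b* at 0.953, 4.62, 0.811 and 0.811 in the same order. Neither passed the test (adjusted p = 0.153 and 0.155, limma). *A2m*, the protease inhibitor alpha-2-macroglobulin, was higher by 2.07 (SE 0.55, adjusted p = 0.0278), at 2.31 and 8.39 FPKM in *rd7* replicates 1 and 2 against 1.11 and 0.862, and so passed the expression limit through its *rd7* libraries. Its call was lost with quantile normalization (adjusted p = 0.0559, limma) and with the GC content and length correction (adjusted p = 0.0607). The other genes called higher were *Egr1* (0.98), which stood higher in *rd7* replicate 1 (20.5 FPKM) than in *rd7* replicate 2 (10.8), *S100a6* (0.94), *Cd44* (0.90), *Cp* (0.83) and *Vim* (0.51), and *Synm* was lower by 0.61 on the log2 scale. The list's count was 4 higher and 2 lower with median-ratio scaling, 2 higher and 2 lower with quantile normalization, and 1 higher and 2 lower with the GC content and length correction.

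Of 12 tested STAT3-linked early and acute-phase genes, *Jun* (0.37), *Mcl1* (0.36) and *Hif1a* (0.30) were higher and *Ier3* was lower, by 0.32 on the log2 scale, so 3 of 12 were higher where 37.6% of all genes tested were. The count was 2 higher and 4 lower with median-ratio scaling, 3 and 3 after quantile normalization, and 1 and 2 with the GC content and length correction, under which the *Hif1a* difference was -0.08. *Cebpd*, an acute-phase transcription factor gene, was listed at 2.58 FPKM in *rd7* replicate 1, 6.30 in *rd7* replicate 2 and 2.55 and 2.60 in WT, and did not pass the test (adjusted p = 0.219, limma). *Bcl3*, under the expression limit, stood at 0.268, 1.21, 0.253 and 0.223 FPKM in the same order. Both were thus level with WT in *rd7* replicate 1 and high in *rd7* replicate 2, as *Fgf2* was.

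**Figure D4:**
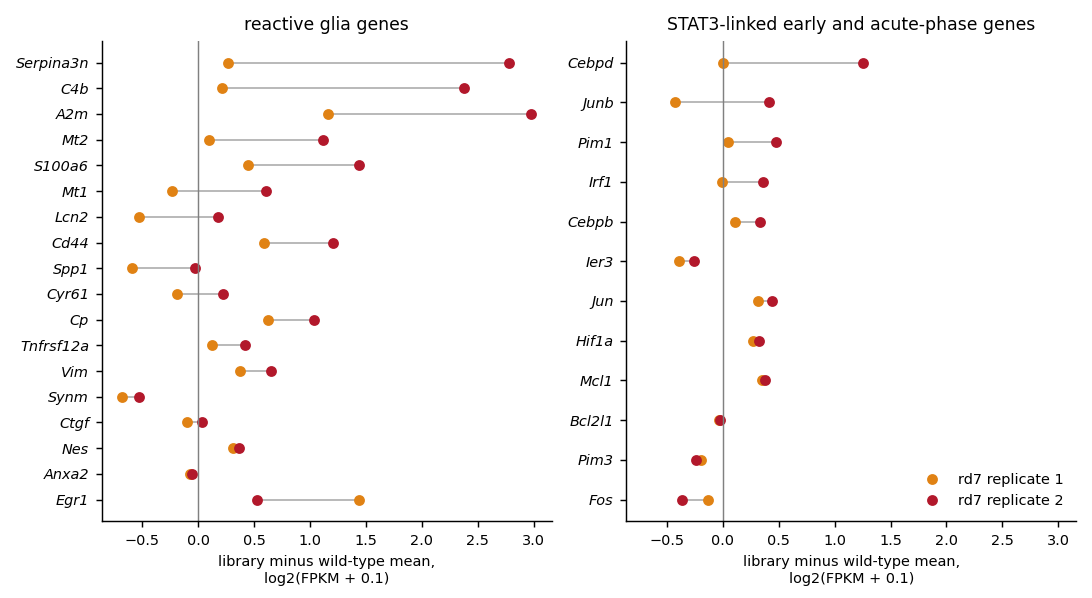
Log2 difference of each *rd7* library from the WT mean for the tested reactive glia genes (left) and STAT3-linked early and acute-phase genes (right), with 1 point per gene and *rd7* library joined by a line and genes ordered by the gap between the libraries. The points of *rd7* replicate 2 lie to the right for 17 of 18 reactive glia genes, *Egr1* being the exception, against 47.6% of all genes tested.

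The genes most like *Edn2* over the 4 libraries, by Euclidean distance in log2(FPKM + 0.1) relative to the WT mean, were *C4b* (0.79), *Serpina3n* (0.88), *Fgf2* (0.89), *Antxr2* (1.11) and *BC026585* (1.25). Those most like *Gfap* were *BC026585* (0.13), *Antxr2* (0.17), *Pcolce* (0.24), *Atf3* (0.39) and *Fgf2* (0.40). *Fgf2*, *Antxr2* and *BC026585* were named for both genes. *Antxr2* stood at 1.91 and 6.24 FPKM in *rd7* replicates 1 and 2 against 1.50 and 1.72 in WT. With 4 points such a likeness is a description of these libraries.

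Markers of the cell types in or near the retina were measured beside these genes. Of the 16 Müller cell genes 7 were higher and 0 lower in *rd7* (0 lower at an unadjusted p under 0.05), led by *Aqp4* (0.67). This count is to be read against the 37.6% of all genes called higher, and median-ratio scaling gave 5 higher and 1 lower. None of the 16 was at least 2 times higher in *rd7* replicate 2 than in *rd7* replicate 1. Only 0.545% of all genes tested were, so this tells little for a list of that size. Summed FPKM of the microglial and macrophage genes were 25.4 and 33.8 in *rd7* replicates 1 and 2 and 23.4 and 24.1 in WT. Of the 8 tested, 7 were higher in *rd7* replicate 2 than in *rd7* replicate 1, against 47.6% of all genes tested. Genes of the astrocyte list summed to 22.9 and 21.3 FPKM in *rd7* against 16.2 and 17.9 in WT. Among them *Igf1* stood at 7.60 and 6.01 against 3.77 and 3.91. *Pax2*, under the expression limit, overlapped between genotypes at 0.136 and 0.0890 against 0.124 and 0.126. The paper uses *Pdgfra*, another gene of that list, to target Müller cells, so the list does not mark astrocytes alone. Endothelial and pericyte genes summed to 101 and 75.4 FPKM in *rd7* against 57.8 and 62.4 in WT. Pigment epithelium genes, which mark tissue that adheres to dissected retina, summed to 58.4 and 53.8 FPKM against 33.5 and 20.8, and lens genes to 20.0 and 44.6 against 35.6 and 82.0. Of these 6 groups the microglial and lens genes had the higher sum in *rd7* replicate 2 than in *rd7* replicate 1. The sums weigh abundant genes most, and the median log2 difference of the 4 tested astrocyte genes from WT was 0.29 in *rd7* replicate 1 and 0.50 in *rd7* replicate 2. Photoreceptor markers moved with genotype. Of 8 tested rod genes 5 were lower (*Gnat1* by 0.79 on the log2 scale), against 8.80% of all genes tested. Of 10 cone genes 8 were higher (*Gnat2* by 3.17), against 37.6%. Their part in the values of the 10 genes was not tested.

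**Figure D5:**
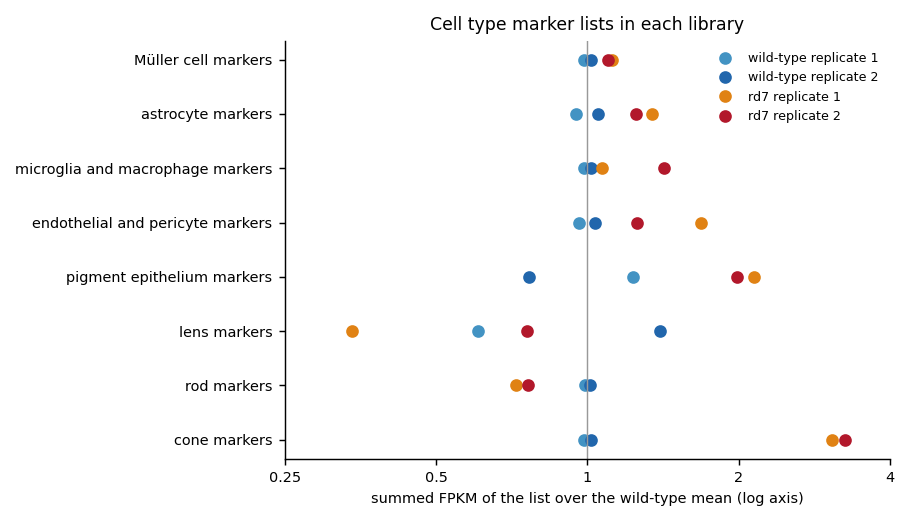
Summed FPKM of the marker genes of each cell type (those with a successful status) in the 4 libraries, divided by the mean of the WT libraries, on a log axis. Müller cell genes are nearly level between the *rd7* libraries (sums of 2536 and 2488 FPKM), endothelial and pericyte genes are higher in *rd7* replicate 1 (101 against 75.4 FPKM), and lens genes are highest in WT replicate 2 (82.0 FPKM).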

How the data were processed

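Poly(A) RNA from mouse retina was sequenced by the authors as single 50-base reads; per the labels and the submitters' processing notes, reads were aligned to mm9 with TopHat 1.4.1 and quantified with Cufflinks 1.3.0 and Cuffdiff. The authors deposited FPKM per gene for each of the 4 libraries, with a quantification status. Their separate Cuffdiff table of fold changes and p-values was not used. FPKM hold no read counts, and the read numbers given here are rough estimates from the smallest FPKM steps. Loci with a status other than successful in any library (262 of 22095) were left out. Genes with a mean of at least 1 FPKM over the 4 libraries (12655) were tested on log2(FPKM + 0.1) with limma 3.58.1 in R 4.3.3 (moderated two-sided test, prior variance fitted as a trend, p-values adjusted by Benjamini-Hochberg over all genes tested), a scale that understates changes of low genes, with no block for replicate numbers. Tables and figures were made with Python 3.11.15, pandas 2.3.3 and matplotlib 3.10.9. Code was tested on simulated data.

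Genes named were the 10 genes of the axis, up to 4 called genes with the largest differences in each of 15 lists, all genes of the endothelin and gp130 lists, the 5 genes nearest in pattern to *Edn2* and to *Gfap*, and overlapping genes. Other list genes named here (*Serpina3n*, *C4b*, *Cebpd*, *Bcl3*, *Cp*, *Vim* and *Synm*) were chosen after their values were seen. The members and lists were chosen with earlier results of these data known. Libraries numbered alike were not treated as paired (r = -0.03 between their deviations over 12655 genes). A correlation over all genes cannot exclude a shared effect in some of them. Lens genes summed higher in replicate 2 than in replicate 1 in both genotypes (44.6 against 20.0 FPKM in *rd7*, 82.0 against 35.6 in WT). The alternatives tried were 2 other pseudocounts (1 and 0.01), other filters, median-ratio and quantile scaling, correction for GC content and exonic length, no variance trend, a replicate block, a false discovery rate of 1%, and leaving out each library. GC content and length came from the NCBIM37 annotation (the assembly of mm9) and promoters from RefSeq (GRCm38.p6). Some genes of the lists are not reported here.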

Additional observations from a re-analysis of the deposited data

How the results depend on the processing

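Of the genes tested, 4755 were higher and 1114 lower in *rd7*. The counts were 2249 and 455 with no filter on low FPKM, 2492 and 2479 with median-ratio scaling, 2350 and 2404 after quantile normalization, 1517 and 1848 with the GC content and length correction, and 2582 and 446 at a false discovery rate of 1%. Leaving out each library in turn gave 1293 to 5484 higher and 224 to 1601 lower. Of the 9 axis genes tested, 6 were higher. With no filter 10 were tested and 1 was higher, and with a mean of at least 5 FPKM 4 were tested and 3 were higher. Of the same 9 genes, 3 were higher with quantile normalization and 3 with the GC content and length correction. At a false discovery rate of 1% the count was 2, and it was 0 to 9 without each library. The direction of *Edn2* turned, from -0.48 to 2.74 over the libraries left out, and that of *Lifr* with the GC content and length correction (-0.066). The replicate block gave 4508 genes higher and 1091 lower, and 7 axis genes, *Gfap* being added (adjusted p = 0.0300, limma), although a pairing of the libraries by number was not established. The causes were not tested. Precision was limited by the 2 pools per genotype and, for *Lif*, by roughly 11 to 31 reads.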
